A study of Mus musculus with 18 samples.

Results

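Histone lysine demethylases other than KDM2B were followed in mouse forebrain and in cultured progenitors from which the chromatin-binding part of KDM2B, or the Polycomb subunit RING1B (gene *Rnf2*), had been removed, to ask whether a related enzyme changes when KDM2B can no longer bind chromatin. The 8 genes are *Kdm1a*, *Kdm2a*, *Kdm3a*, *Kdm4a*, *Kdm4b*, *Kdm4c*, *Kdm5b* and *Kdm6b*. They were named one by one as autosomal demethylase genes, and 11 further autosomal demethylases and relatives are read as a separate list. The rule uses no measured value, though the names were chosen with earlier results of these data known. The 8 are part of 56589 gene names over the 4 expression tables. All 8 had an entry in each table, and all 8 were above the filter on low values (a mean of at least 0.5 FPKM) in each comparison. FPKM is the number of fragments for a gene, divided by its length and by the size of the library, by definition its mapped fragments.

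The 18 poly(A) RNA-seq libraries are of postnatal day 0 (P0) mice or of cells taken from them. The *Kdm2b* cKO is *Kdm2b* Emx1-ΔCxxC, in which Emx1-Cre removes the floxed exon that encodes the CxxC zinc finger, and its controls carry *Kdm2b* fl/+ or *Kdm2b* fl/fl. It was measured in hippocampus (3 control and 3 cKO libraries), in hippocampal neurospheres (2 and 2), which are neural progenitor cells (NPCs) grown as floating spheres with FGF2 and EGF for several generations, and in cortex (2 and 2). The *Rnf2* Emx1-cKO was measured in hippocampus (2 and 2), with *Rnf2* fl/+ or *Rnf2* fl/fl controls. The labels do not tell heterozygous from homozygous floxed controls, so each control group may mix them. Emx1-Cre is active in progenitors of the dorsal telencephalon and their progeny, so microglia, vessels and meninges in these tissues keep the intact gene. Nothing in the labels ties a replicate number to a litter or animal, so p values measure the spread between these libraries, which may be technical in part.

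Methyl groups on histone lysines mark active and silent chromatin, and demethylases take them off. KDM1A works by amine oxidation, mostly in the CoREST complex with histone deacetylases, and removes lower methylation states of lysine K4 of histone H3. The others use a JmjC domain that needs iron, oxygen and 2-oxoglutarate. KDM2A and KDM2B act on H3K36 and share a CxxC zinc finger that binds unmethylated CpG, KDM3A acts on H3K9, and KDM4A, KDM4B and KDM4C act on trimethylated H3K9 and H3K36. KDM5B acts on trimethylated H3K4, and KDM6B removes the H3K27 methylation that Polycomb repressive complex PRC2 lays down.

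The deletions themselves are hardly visible at the level of whole genes. *Kdm2b* was at 31.9, 28.3 and 28.1 FPKM in control and 28.2, 27.3 and 26.2 FPKM in cKO hippocampi, at 22.2 and 21.9 against 22.5 and 23.7 FPKM in neurospheres, and at 15.7 and 16.9 against 14.9 and 14.7 FPKM in cortices. *Rnf2* was at 32.3 and 30.8 FPKM in control and 28.5 and 27.8 FPKM in *Rnf2* cKO hippocampi. None of these differences passed the threshold (limma, adjusted p from 0.364 to 0.762), and a value over the whole gene does not resolve the floxed exons. The paper shows the *Kdm2b* deletion otherwise, by the missing exon in neurosphere reads and by its nearly absent in situ signal in cKO hippocampi. It also reports truncated KDM2B protein in cKO neocortex, and in *Rnf2* cKO neocortex much less of the histone mark that RING1B lays down.

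Some libraries stand apart. Neurosphere control library 1 had 29.3% of its FPKM in entries without a gene name, against 0.876% to 1.95% in the other 3 neurosphere libraries. *Xist*, expressed in female cells, stood at 153.8 FPKM in hippocampal cKO library 1, where the other 5 did not exceed 0.0732 FPKM, at 0.361 FPKM in neurosphere cKO library 1 against at least 140.0 FPKM in the other 3, and at 0.0177 FPKM in cortical control library 1 against at least 132 FPKM in the others. All 4 *Rnf2* libraries had *Xist* at 71.0 FPKM or more. The paper states a single sequencing depth for its libraries, but the mapped reads of each hippocampal and neurosphere library are not known. In cortical and *Rnf2* libraries the values gave back whole reads, 856 to 5823 reads for each of the 8 genes in a cortical library and 330 to 4078 in an *Rnf2* library. With 2 or 3 libraries a group, small changes could not be seen.

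The tissue labels were checked against marker genes. *Emx1*, whose promoter drives the Cre, was at a mean of 40.2 FPKM in control hippocampi, 27.8 FPKM in control cortices and 12.3 FPKM in *Rnf2* controls. *Neurod6*, a gene of pallial neurons, was at 158.3, 528.0 and 200.9 FPKM in the same groups. In neurospheres *Emx1* was at a mean of 0.0873 FPKM in controls and 1.50 FPKM in cKO, and *Neurod6* was below the filter. Other pallial genes were present there, as *Lhx2* at 54.1 and 60.3 FPKM, *Emx2* at 15.1 and 10.7 FPKM, *Prox1* at 12.2 and 12.1 FPKM and *Zbtb20* at 6.26 and 4.45 FPKM. Markers of blood, choroid plexus and vessels were low in neurospheres. The 4 red blood cell markers summed to 0 FPKM in controls and up to 3.32 FPKM in cKO, the 5 of choroid plexus to at most 1.11 and 3.69 FPKM, and the 4 of vessels to 4.77 to 5.47 and 4.27 to 5.02 FPKM. Of these, *Alas2*, *Folr1* and *Cldn5*, 1 from each list, were listed at 0 in all 4 neurosphere libraries. The vessel sum holds the entry that joins *Pecam1* with *Polg2*, so it cannot be given to vessels alone, and 1 of the 4 vessel markers passed the filter there.

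Because the CxxC finger that the cKO lacks reads CpG, the bases just upstream of the start site are shown for *Kdm5b* and *Kdm3a*, whose response to the cKO differed between neurospheres and hippocampi below, and for *Kdm1a*, the most abundant of the genes. The stretches are read 5′ to 3′ on the gene's strand from RefSeq (build GRCm38.p6), stop where the gene begins in RefSeq or in the deposited annotation, and have each CpG in capitals.
Kdm5b, chr1:134559928-134560170, plus strand: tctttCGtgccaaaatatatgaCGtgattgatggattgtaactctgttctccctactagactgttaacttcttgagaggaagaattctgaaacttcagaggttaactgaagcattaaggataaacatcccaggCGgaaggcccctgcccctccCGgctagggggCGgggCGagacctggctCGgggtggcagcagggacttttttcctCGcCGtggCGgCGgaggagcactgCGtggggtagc
Kdm3a, chr6:71632991-71633167, minus strand: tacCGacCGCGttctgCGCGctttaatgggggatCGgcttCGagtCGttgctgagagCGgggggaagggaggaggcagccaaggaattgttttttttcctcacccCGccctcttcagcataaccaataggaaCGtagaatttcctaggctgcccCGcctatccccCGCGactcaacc
Kdm1a, chr4:136602788-136602973, minus strand: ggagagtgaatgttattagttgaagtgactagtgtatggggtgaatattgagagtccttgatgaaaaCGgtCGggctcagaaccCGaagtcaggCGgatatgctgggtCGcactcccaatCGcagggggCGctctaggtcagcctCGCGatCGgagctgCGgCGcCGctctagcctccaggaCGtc
The stretch of *Kdm5b* is 243 bases long with 12 CpG, that of *Kdm3a* 177 bases with 14 CpG and that of *Kdm1a* 186 bases with 14 CpG. RefSeq places the stretch of *Kdm5b* within the bounds of *Mgat4e* as well, and no other RefSeq gene covers those of *Kdm3a* and *Kdm1a*.

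Over a fixed window of 250 bases before the start, 5 of the 8 genes had an entry. CpG occurred 21 times at *Kdm1a*, 20 times at *Kdm3a*, 13 times at *Kdm5b*, 12 times at *Kdm4a* and 0 times at *Kdm4c*. Of all 32851 windows of that length, with a median of 6 CpG, 16.3% held at least as many as *Kdm1a*, 17.9% as many as *Kdm3a*, 31.5% as many as *Kdm5b* and 33.5% as many as *Kdm4a*. The windows of *Kdm1a*, *Kdm3a* and *Kdm5b* reach past the printed stretches into the gene's bounds in RefSeq or in the deposited annotation, so they hold more CpG. The entry of *Kdm4c* used is the most upstream of 2, and that of *Kdm3a* of 3. *Kdm2a*, *Kdm4b* and *Kdm6b* had no entry. A count of letters says nothing about methylation or binding.

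Levels were ranked within each table, since FPKM is per length and the tables were made separately. *Kdm1a* (ENSMUSG00000036940, chr4:136550540-136602723 of GRCm38, minus strand) led in all 4. It was at 53.8 ± 1.999 FPKM (SD, n = 3) in control hippocampi, 57.4 ± 3.33 FPKM in neurospheres, 50.8 ± 1.61 FPKM in cortices and 43.2 ± 5.15 FPKM in *Rnf2* controls (SD, n = 2 each). That put it above 88.2% to 94.6% of the genes tested in a table. *Kdm4a* (ENSMUSG00000033326, chr4:118136957-118180043, minus strand) came next in each table, from 32.4 ± 6.83 FPKM in *Rnf2* controls to 39.5 ± 1.17 FPKM in control hippocampi, and its control libraries did not overlap those of *Kdm1a* in any table.

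The order below these varied. In control hippocampi *Kdm4b*, *Kdm5b* and *Kdm6b* followed at 25.3 ± 1.42, 24.2 ± 0.797 and 22.5 ± 2.87 FPKM (SD, n = 3 each), and each overlapped the next. *Kdm2a* and *Kdm3a* overlapped as well, at 14.9 ± 1.23 and 13.6 ± 0.483 FPKM, and *Kdm4c* was lowest at 8.49 ± 0.882 FPKM. *Kdm4c* had the lowest control mean of the 8 in all 4 tables, with *Kdm2a* just above it in 3 of them. In neurospheres the control libraries of these overlapped, and in cKO neurospheres *Kdm5b* was below *Kdm4c*.

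In neurospheres *Kdm3a* came next after *Kdm4a*, at 25.8 ± 1.69 FPKM (SD, n = 2), where it was at 13.6 FPKM in hippocampi and 14.0 FPKM in cortices. *Kdm4c* was at 15.7 ± 0.107 FPKM in control neurospheres and at 8.49 and 8.09 FPKM in the 2 tissues of the *Kdm2b* line. *Kdm4b* went the other way, with its lowest control mean in neurospheres (20.8 FPKM) and its highest in cortex (31.7 FPKM). These values stand side by side without a test. The lowest control mean of 7 of the 8 genes was in *Rnf2* hippocampi, and the ratio of the highest to the lowest of the 4 control means ran from 1.22 for *Kdm4a* to 3.91 for *Kdm4c*. The plot of FPKM by library shows each value.

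**Figure D1:**
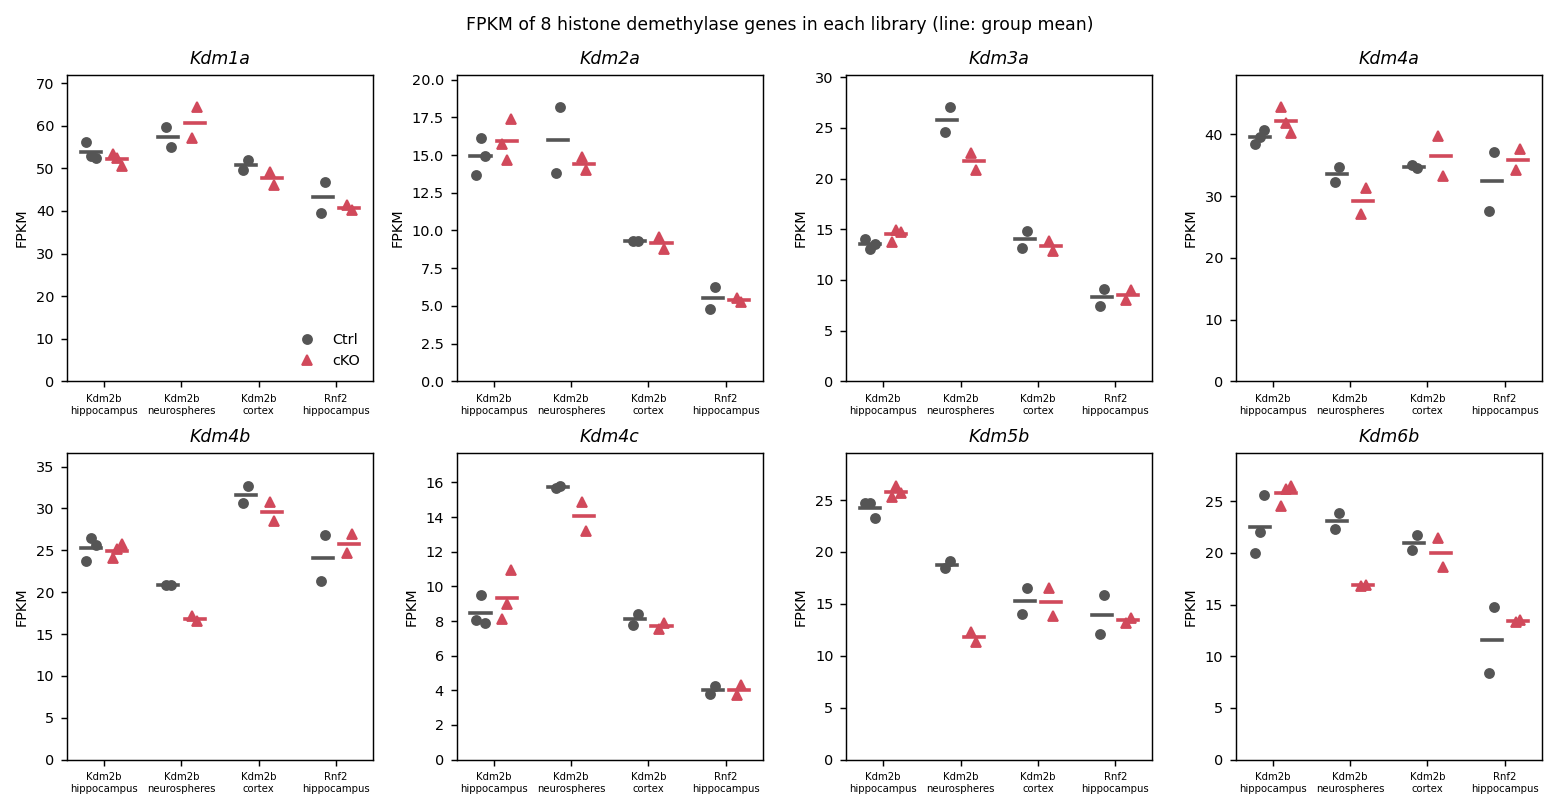
FPKM (vertical axis, from 0) of the 8 demethylase genes in each of the 18 libraries, by comparison (horizontal axis), with controls as grey circles, cKO as red triangles and lines at group means. *Kdm5b* and *Kdm6b* in neurospheres are the pairs of groups that lie farthest apart, at 18.8 against 11.8 and 23.1 against 16.9 FPKM.

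Several entries carry more than 1 gene. *Kdm6b* (ENSMUSG00000018476, chr11:69398508-69413675, minus strand) shares its hippocampal entry with *Cyb5d1* and *Tmem88* and its neurosphere entry with *Tmem88*, so those values cannot be given to *Kdm6b* alone. Where the genes have entries of their own, *Cyb5d1* was at 7.53 to 9.20 FPKM in neurospheres, 16.3 to 19.1 FPKM in cortices and 7.54 to 11.3 FPKM in *Rnf2* hippocampi. *Tmem88* was at 0.327 to 0.933 FPKM in cortices and 0.634 to 1.76 FPKM in *Rnf2* hippocampi. The antisense gene *Kdm6bos*, inside *Kdm6b* on the other strand, was at 1.15 to 2.24 FPKM in cortices. *Kdm1a* overlaps the end of *Luzp1* on the other strand, and *Kdm4c* overlaps the antisense gene *A230083N12Rik*. The library kit is not stated to keep strand, so reads of such pairs cannot be told apart.

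In hippocampi, none of the 8 demethylase genes was called with the *Kdm2b* cKO. Calls follow the thresholds of the study, an absolute log2 fold change over 0.4 together with an unadjusted p under 0.05, here from limma on the log2(FPKM + 1) scale. By this rule 0 of 8 were called, where 6.14% of all 13446 genes tested were, and at an adjusted p under 0.05 also 0 of 8, against 8.27% of all genes. Their log2 fold changes (cKO over control) ran from -0.04 to 0.19 with a median of 0.09, beside 0.01 over all genes, and 6 of 8 were positive. The summed level of the 8 genes was 198.6, 204.2 and 204.1 FPKM in controls and 209.2, 210.7 and 211.7 FPKM in cKO.

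*Kdm6b* had the largest estimate. It was at 20.0, 22.0 and 25.6 FPKM in control and 24.6, 26.2 and 26.5 FPKM in cKO hippocampi. Of the cKO libraries, 2 lie above all controls, and the lowest lies below the highest control. The log2 fold change was 0.19 (95% interval 0.0013 to 0.38, adjusted p = 0.215 from limma). *Kdm6b* was the 1 gene of 8 with an unadjusted p under 0.05, and was so in 7 of 14 alternatives.

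*Kdm5b* (ENSMUSG00000042207, chr1:134560171-134635285, plus strand) was at 24.7, 24.7 and 23.3 FPKM in controls and 25.3, 26.4 and 25.7 FPKM in cKO. It was the only member whose groups did not overlap, which held for 29.2% of all genes. The difference was small, with a log2 fold change of 0.09 (limma, 95% interval -0.03 to 0.20, adjusted p = 0.361).

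*Kdm2a* is the closest relative of *Kdm2b* and the other member with a CxxC finger (ENSMUSG00000054611, chr19:4314419-4398285, minus strand). It was at 13.7, 16.1 and 14.9 FPKM in controls and 15.8, 14.7 and 17.4 FPKM in cKO hippocampi. The groups overlapped, and the 95% interval of its log2 fold change of 0.09 reached from -0.09 to 0.27 (limma, adjusted p = 0.568). *Kdm1a* and *Kdm4b* had estimates of -0.04 and -0.02, and the interval of *Kdm4c*, with the widest spread, was -0.13 to 0.37.

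In neurospheres *Kdm5b* and *Kdm6b* fell with the *Kdm2b* cKO, to 0.65 and 0.74 of the control level on the log2(FPKM + 1) scale, and the other 6 genes were not called. The 2 called genes of 8 stand beside 24.6% of all 12227 genes tested, and the same 2 had an adjusted p under 0.05, beside 22.3% of all genes. Without control library 1, and also without control library 2, 0 of 8 had an adjusted p under 0.05 (limma, 2 and 1 genes called by the unadjusted rule). A share of 2 in 8 is near the background of this table, in which 11.4% of genes were called higher and 13.2% lower. The log2 fold changes of the 8 genes had a median of -0.22, beside -0.01 over all genes, and 7 of 8 were negative.

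*Kdm5b* was at 18.5 and 19.1 FPKM in control and 12.3 and 11.3 FPKM in cKO neurospheres. The cKO libraries lie well under both controls. The log2 fold change was -0.63 (standard error 0.089, 95% interval -0.85 to -0.41, adjusted p = 0.00727 from limma).

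*Kdm6b* was at 22.3 and 23.9 FPKM in controls and 16.8 and 16.9 FPKM in cKO, read from the entry that also holds *Tmem88*. Here, too, the groups are apart. The log2 fold change was -0.43 (standard error 0.083, 95% interval -0.64 to -0.23, adjusted p = 0.0181 from limma), just past the threshold of size. The call was lost without control library 2, at -0.38.

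*Kdm4b* (ENSMUSG00000024201, chr17:56326062-56402870, plus strand) was at 20.9 and 20.8 FPKM in controls and 17.1 and 16.6 FPKM in cKO neurospheres, with a log2 fold change of -0.29 (limma, adjusted p = 0.0503). *Kdm3a* (ENSMUSG00000053470, chr6:71588972-71632990, minus strand), which acts on H3K9, was at 24.6 and 27.0 FPKM in controls and 22.5 and 20.9 FPKM in cKO, with -0.24 (adjusted p = 0.113). Both were below all controls but under the threshold of size. *Kdm4a* and *Kdm4c* (ENSMUSG00000028397, chr4:74242497-74405860, plus strand) had estimates of -0.19 and -0.16. Together with *Kdm5b* and *Kdm6b*, these made 6 of 8 genes whose groups did not overlap, all lower in cKO, beside 66.4% of all genes.

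*Kdm2a* was at 13.8 and 18.2 FPKM in controls and 14.8 and 14.0 FPKM in cKO neurospheres, so both cKO libraries lay between the controls. *Kdm1a* was the only member with a positive estimate, at 59.7 and 55.0 FPKM in controls and 57.2 and 64.3 FPKM in cKO, with a log2 fold change of 0.08 (limma, 95% interval -0.16 to 0.32). The summed level of the 8 genes was 207.8 and 214.5 FPKM in controls and 182.8 and 188.5 FPKM in cKO.

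Other cell groups moved in the same cultures. All 6 cell-cycle markers were called higher in cKO neurospheres, beside 11.4% of all genes. Their summed level was 152.7 to 161.7 FPKM in controls and 341.8 to 361.4 FPKM in cKO. All 4 astrocyte markers were called lower, beside 13.2% of all genes, with sums from 158.3 to 189.4 FPKM down to 21.1 to 21.6 FPKM. Of 4 oligodendrocyte-lineage markers 2 were called lower and 0 higher, with sums of 2253 to 2343 FPKM in controls and 2412 to 2473 FPKM in cKO. Of 7 progenitor markers 2 were called higher and 1 lower, and of 5 neuronal markers 1 and 2. The part of these shifts in the values of *Kdm5b* and *Kdm6b* was not tested, and in bulk RNA fewer cells of a type cannot be told apart from less RNA per cell. The scaling mattered as well. With named genes rescaled to the same FPKM total, which moved the median of all genes from -0.01 to 0.09 and the calls from 1392 higher and 1620 lower to 1256 and 830, *Kdm5b* was at -0.52 and *Kdm6b* at -0.32 and 0 of 8 were called. Summed over all entries, control library 1 had 855276 FPKM, against 452580 to 522964 FPKM in the other neurosphere libraries. With median-ratio scaling of all libraries both genes were called, at -0.62 and -0.42. That scaling without control library 1 gave -0.64 and -0.47. The plot of settings shows the range.

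**Figure D2:**
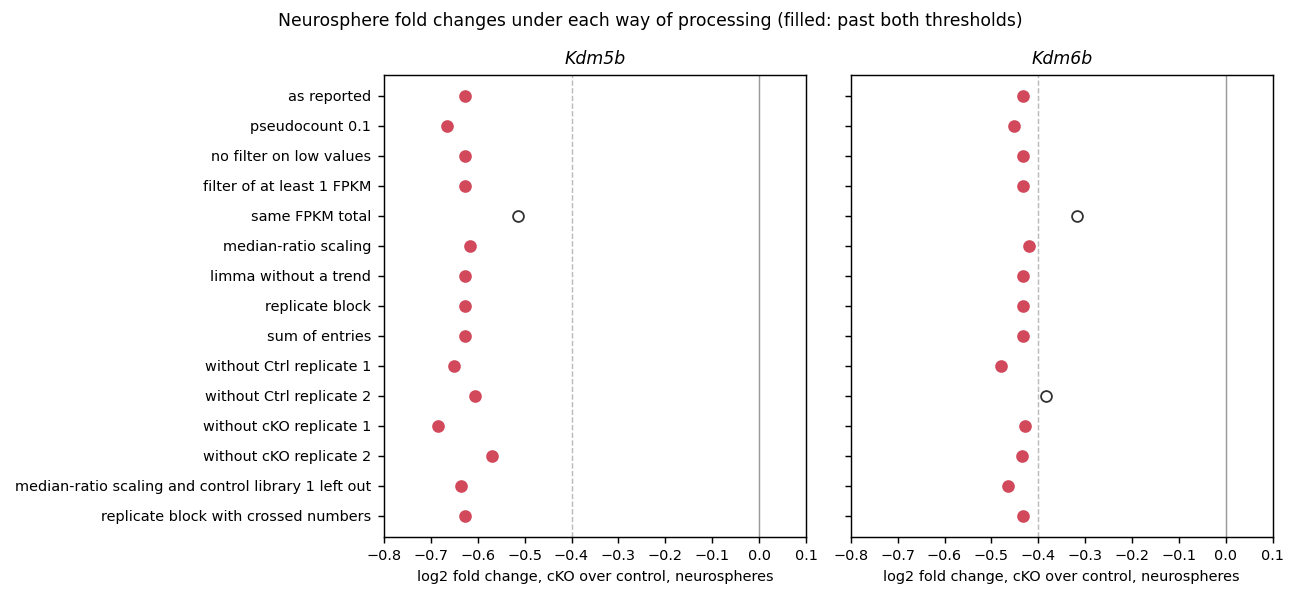
Log2 fold change (cKO over control, horizontal axis) of *Kdm5b* and *Kdm6b* in neurospheres under each way of processing (rows), with filled points past both thresholds and a dashed line at -0.4. *Kdm5b* stayed between -0.68 and -0.52 and *Kdm6b* between -0.48 and -0.32.

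In cortices 0 of 8 genes were called with the *Kdm2b* cKO, beside 7.01% of all 15691 genes. At an adjusted p under 0.05 limma called 0 of 8, beside 0.427% of all genes, at an unadjusted p under 0.05 also 0, and limma-voom on the recovered reads gave 0 as well. The log2 fold changes ran from -0.09 for *Kdm4b* to 0.06 for *Kdm4a* with a median of -0.07, beside -0.0053 over all genes. *Kdm5b*, lower in cKO neurospheres, was at 14.1 and 16.5 FPKM in control and 16.5 and 13.8 FPKM in cKO cortices. The groups cover the same range, and the 95% interval of its log2 fold change of -0.01 reached from -0.33 to 0.31. *Kdm6b* was at 20.2 and 21.7 FPKM in controls and 21.4 and 18.6 FPKM in cKO. *Kdm1a* was the 1 gene of 8 whose groups did not overlap (49.7 and 51.9 against 49.2 and 46.2 FPKM), beside 44.8% of all genes.

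In *Rnf2* cKO hippocampi 0 of 8 genes were called, beside 4.71% of all 15764 genes. At an adjusted p under 0.05 there were 0 of 8 beside 0% of all genes with limma, at an unadjusted p under 0.05 also 0, and limma-voom called 0. The groups overlapped for all 8 genes, where 38.3% of all genes did not overlap. Log2 fold changes ran from -0.07 for *Kdm1a* to 0.24 for *Kdm6b* with a median of 0.02, beside a median of -0.0002 over all genes.

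*Kdm6b* was at 8.41 and 14.7 FPKM in control and 13.3 and 13.5 FPKM in *Rnf2* cKO hippocampi. The 2 controls lie on either side of both cKO libraries. In control library 1, 7 of the 8 genes had their lowest level of the table, and the sum of the 8 was 125.0 FPKM there against 161.0 FPKM in control library 2 and 144.0 and 150.4 FPKM in cKO. Each direction therefore rests on the control kept. Without control library 2, *Kdm6b* was at 0.61 and was called, and without control library 1 it was at -0.13. The plot of fold changes sets the 4 comparisons beside each other.

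**Figure D3:**
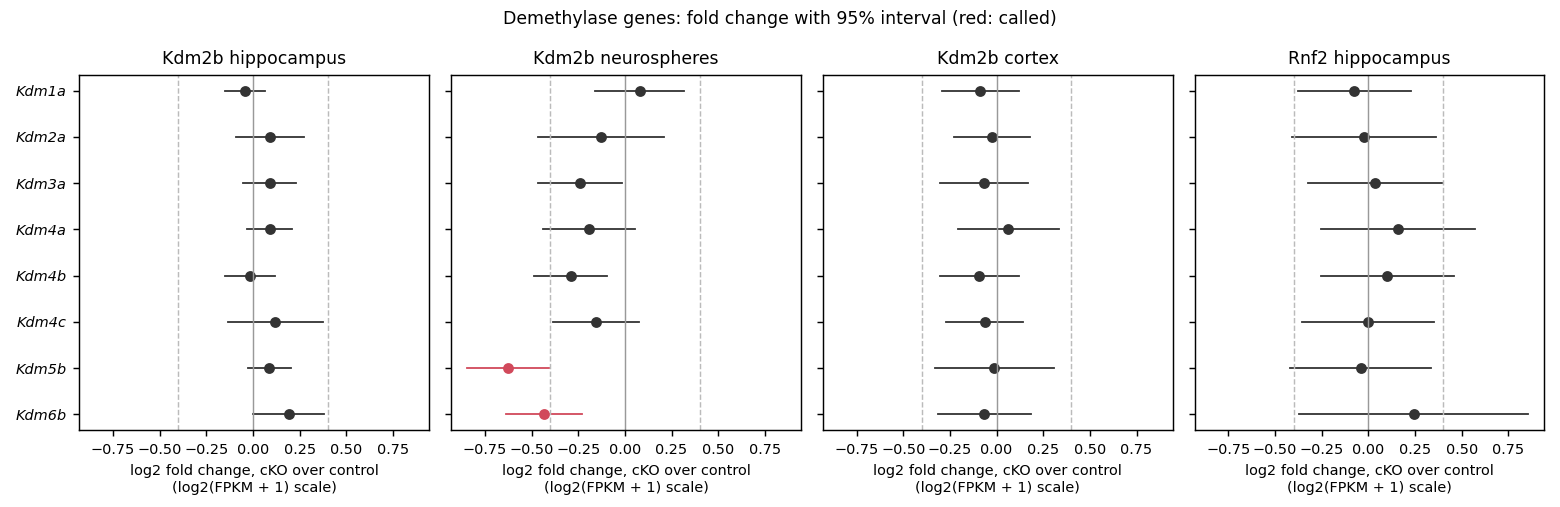
Log2 fold change of cKO over control (horizontal axis, log2(FPKM + 1) scale) of the 8 genes in each comparison, with limma's 95% intervals, dashed lines at -0.4 and 0.4, and called genes in red. The 2 red points are *Kdm5b* at -0.63 and *Kdm6b* at -0.43 in neurospheres.

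The effects of the cKO in different tables were compared as an interaction of genotype and table with limma. In neurospheres the effect was lower than in hippocampi for 4 of the 8 genes at an adjusted p under 0.05, beside 26.9% of 11076 genes tested in both. The difference of log2 fold changes was -0.71 for *Kdm5b* (95% interval -0.91 to -0.52, adjusted p = 0.00029), -0.62 for *Kdm6b* (-0.91 to -0.34, adjusted p = 0.00507), -0.33 for *Kdm3a* (-0.55 to -0.11, adjusted p = 0.0340) and -0.27 for *Kdm4b* (-0.48 to -0.07, adjusted p = 0.0476). *Kdm5b* was past this threshold under every alternative run, and *Kdm6b* under all but the same FPKM total. *Kdm3a* and *Kdm4b* each dropped out under several, among them the replicate block and, for both, leaving out hippocampal control library 3, hippocampal cKO library 2 or 3, or neurosphere control library 2. The hippocampal and neurosphere entries of *Kdm6b* hold different sets of neighbours.

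Between cortex and hippocampus the difference passed for 0 of 8 genes, beside 1.61% of 10709, and 0 of 8 had an unadjusted p under 0.05 with limma. The intervals still allow differences, as for *Kdm6b*, from -0.55 to 0.04. Between *Rnf2* and *Kdm2b* hippocampi it passed for 0 of 8, beside 0.683% of 11267, with 0 of 8 at an unadjusted p under 0.05, and the interval for *Kdm6b* spanned -0.47 to 0.57. These 3 contrasts share the hippocampal *Kdm2b* libraries.

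**Figure D4:**
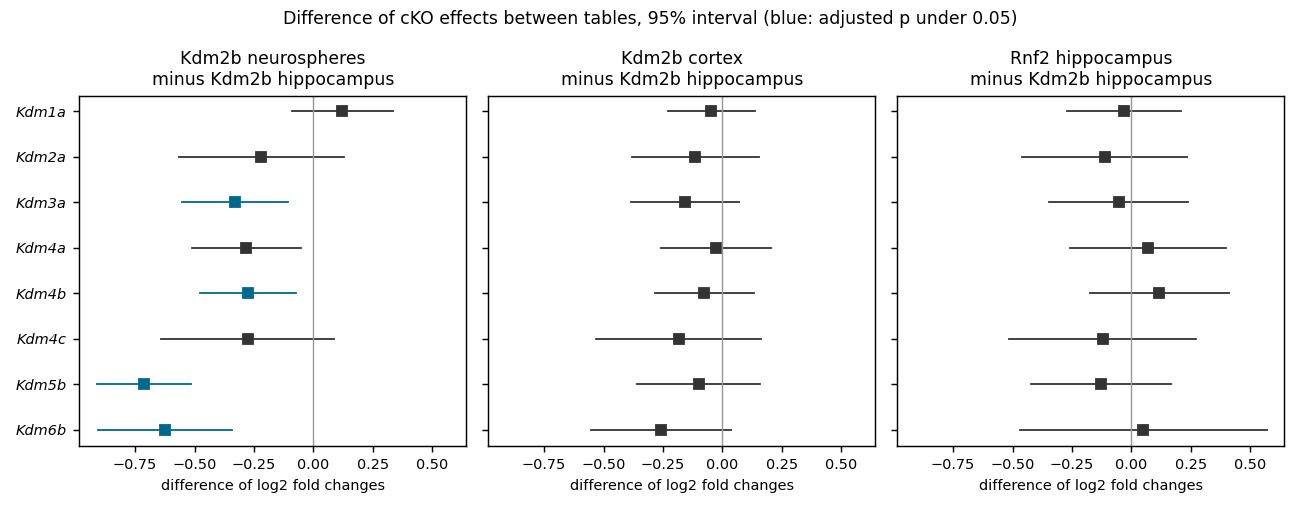
Difference of cKO effects (log2 fold change in the named table minus that in *Kdm2b* hippocampi, horizontal axis) for the 8 genes, with limma's 95% intervals and genes at an adjusted p under 0.05 in blue. The 4 blue genes, *Kdm3a*, *Kdm4b*, *Kdm5b* and *Kdm6b*, are all in the neurosphere panel and all below 0.

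Further autosomal demethylases and their relatives were read as a list of 11 (such as *Kdm1b*, *Kdm5a*, *Kdm7a* and *Phf2*). Called were 0 of 10 tested in hippocampi, 0 of 9 in neurospheres, 1 of 10 in cortices and 0 of 10 in *Rnf2* hippocampi. The cortical gene is *Hr*, which encodes a demethylase-like corepressor of nuclear receptors and rose from a mean of 2.09 to 3.48 FPKM (log2 fold change 0.54, adjusted p = 0.112 from limma). Medians of the log2 fold changes were 0.10, 0.08, 0.04 and 0.03. With limma 3, 3, 1 and 0 of these genes had an unadjusted p under 0.05. Over all genes tested, 6.14%, 24.6%, 7.01% and 4.71% were called in these tables. In hippocampi *Phf2*, a JmjC protein of the KDM7 family, had an adjusted p under 0.05 although its size kept it from being called (15.9 to 18.8 FPKM, log2 fold change 0.23, adjusted p = 0.0361 from limma). It was the 1 gene of 10 there, beside 8.27% of all genes.

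Of 5 demethylase genes on the sex chromosomes (*Kdm5c*, *Kdm6a*, *Phf8*, *Kdm5d* and *Uty*), 0 were called in any comparison, and 0 had an unadjusted p under 0.05 with limma. In *Rnf2* hippocampi 3 of them were tested, with *Kdm5d* and *Uty* at 0. The shares of all genes called were 6.14% in hippocampi, 24.6% in neurospheres, 7.01% in cortices and 4.71% in *Rnf2* hippocampi. The libraries of the *Kdm2b* comparisons differ in sex as *Xist* shows, so the lack of calls among sex-linked genes says little about the cKO. *Kdm6a*, an X-linked relative of *Kdm6b*, was at 8.43 FPKM in hippocampal cKO library 1 and between 5.42 and 5.97 FPKM in the others. In neurospheres it was at 9.14 FPKM in cKO library 1 and between 12.1 and 14.0 FPKM in the others. Y-linked *Kdm5d* was listed at 0 in hippocampal cKO library 1 and at 6.08 FPKM or more in the other 5. The 8 autosomal genes were called alike without these libraries: 0 of 8 in hippocampi without cKO library 1, and *Kdm5b* and *Kdm6b* in neurospheres without cKO library 1.

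Partners of KDM1A in the CoREST complex (9 genes) included *Rcor2*, a CoREST subunit of neural progenitors. It was called higher in neurospheres (16.2 to 22.2 FPKM, log2 fold change 0.43, adjusted p = 0.0532 from limma) and in *Rnf2* cKO hippocampi (25.4 to 38.7 FPKM, 0.61, adjusted p = 0.680). It was the 1 gene called of 9 in each, beside 24.6% and 4.71% of all genes, and 5 and 2 of the 9 had an unadjusted p under 0.05 with limma. In *Kdm2b* hippocampi and in cortices 0 of 9 were called, beside 6.14% and 7.01% of all genes, and 2 each had an unadjusted p under 0.05. At an adjusted p under 0.05 limma passed 1 of 9 in neurospheres, which was not *Rcor2*, 1 of 9 in *Kdm2b* hippocampi and 0 of 9 in cortices and *Rnf2* hippocampi.

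Of 18 histone methyltransferase genes, whose products lay down the marks these demethylases remove, 0 were called in the 3 tissue comparisons. Beside them, 6.14%, 7.01% and 4.71% of all genes were called in *Kdm2b* hippocampi, cortices and *Rnf2* hippocampi. In that order limma passed 1, 0 and 0 of the 18 at an unadjusted p under 0.05. In neurospheres 3 were called higher and 1 lower, a share near the 24.6% of all genes called there. *Ezh2* and *Ezh1* encode alternative catalytic subunits of PRC2, the writer of the mark that KDM6B removes. *Ezh2* rose from 29.8 to 46.1 FPKM (log2 fold change 0.61, adjusted p = 0.00655 from limma) and *Ezh1* fell from 6.87 to 3.85 FPKM (-0.70, adjusted p = 0.0143). *Suv39h2*, an H3K9 methyltransferase, rose from 3.13 to 5.89 FPKM (0.74, adjusted p = 0.00805). The entry that joins *Nsd1*, an H3K36 methyltransferase, with *Prelid1* went from 163.2 to 236.7 FPKM (0.53, adjusted p = 0.0695).

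Genes induced in low oxygen (13, a response in which *Kdm3a* takes part) were read as a list because JmjC enzymes use oxygen. In neurospheres 3 of 12 tested were called higher and 0 lower, again near the 24.6% of all genes. *Ldha*, lactate dehydrogenase, rose from 152.4 to 290.8 FPKM (0.91, adjusted p = 0.0148 from limma), *Ndrg1* from 0.285 to 1.32 FPKM (0.84, adjusted p = 0.0434) and *Ankrd37* from 1.30 to 2.82 FPKM (0.75, adjusted p = 0.0541). The control mean of *Ndrg1* lay under the filter of 0.5 FPKM, so this gene was tested only through its cKO level, and its call carries little weight. In hippocampi *Egln3*, an oxygen-sensing hydroxylase, rose (0.50, adjusted p = 0.0371 from limma) and *Ndrg1* fell (-0.58, adjusted p = 0.0245). That is 1 up and 1 down of 11, beside 6.14% of all genes called. The glucose transporter *Slc2a1* was called higher in cortices (0.41, adjusted p = 0.275 from limma), 1 of 12, near the 7.01% of all genes. In *Rnf2* hippocampi 0 of 11 were called, beside 4.71% of all genes, with 0 at an unadjusted p under 0.05.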

How the data were processed

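Poly(A) RNA-seq libraries of P0 mouse hippocampi, hippocampal neurospheres and cortices were read as FPKM as deposited by the authors. Reads of hippocampi and neurospheres were trimmed with cutadapt, aligned to mm10 with STAR and turned into FPKM with Cufflinks 2.2.1. How cortical and Rnf2 values were made is not given in the sources used here beyond the submitters' processing notes, which list the same tools and GRCm38. Those tables give a gene length, and FPKM times length was a whole multiple of a single step for 100% of values (tolerance 0.05 reads). The step implies library sizes of 14962619 to 22036848. Reads summed over genes exceeded that size in cortical cKO library 1 (19669593 against 19637581) and Rnf2 control library 2 (15719305 against 15557939). It is therefore a scaling size, not a count of mapped reads. For the other tables neither such a size nor the mapped reads per library are known, and counting error could not be given there. The authors called genes with DESeq2 on counts, which are not used here.

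Entries without a gene name were left out, and a name listed several times was read from its entry of highest mean level. Of the members this touched Kdm1a and Kdm4b in the hippocampal table. Groups were taken from the deposited labels. The test was limma 3.58.1 under R 4.3.3, with a mean-variance trend in eBayes. It ran on log2(FPKM + 1), which shrinks changes of low genes, and took genes averaging 0.5 FPKM or more in the libraries compared. Each comparison was fitted by itself, with Benjamini-Hochberg adjustment over all its genes, and differences between tables as an interaction over genes passing in both. The fits were first tested on simulated data.

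The members, gene lists and tests were chosen with earlier results of these data known. Named are the 8 members, the targeted genes, Xist and sex-chromosome demethylases, at most 4 called genes per list and table with groups that do not overlap and the largest fold changes, and for each member the 2 genes with the most similar levels over all libraries. Markers are given as lists, except the pallial list, which is not reported here as a whole, and markers at 0 are named. Emx1, Emx2, Neurod6, Lhx2, Prox1, Zbtb20, Lhx9, Aqp4, Ttr and Phf2 were added after their values were seen. Alternatives were the pseudocount, filters, scalings, the variance model, a replicate block, summed entries, adjusted p values, limma-voom (cortices and Rnf2), and each library left out. Sequences are from RefSeq.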

Additional observations from a re-analysis of the deposited data

Results flagged for a closer look

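The effect of the *Kdm2b* cKO differed between neurospheres and hippocampi for 4 of 8 demethylase genes, beside 26.9% of the 11076 genes tested in both tables. This was a test of the difference itself (limma interaction, adjusted p under 0.05 over all those genes). *Kdm5b* (-0.71 on the log2 scale, neurosphere effect minus hippocampal effect) went with a fall in neurospheres and an estimate of 0.09 in hippocampi. *Kdm6b* (-0.62) had estimates of -0.43 and 0.19, from entries that hold different sets of neighbours. *Kdm3a* (-0.33) had -0.24 and 0.09, and *Kdm4b* (-0.27) had -0.29 and -0.02, and neither of these genes was called in either table. The difference of each was lost under several alternatives, among them the replicate block. The astrocyte and cell-cycle markers also moved in these neurospheres, and their part in the differences was not tested. Neurosphere and hippocampal tables were made separately, and growth in culture cannot be told apart from the other ways in which the 2 sets of libraries differ.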

How the results depend on the processing

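In hippocampi and cortices 0 of 8 demethylase genes were called under every alternative run. In neurospheres rescaling to the same FPKM total gave 0 called genes and 1 gene (*Kdm5b*) that differed from hippocampi, and leaving out each library gave 1 to 2 called genes, with the call of *Kdm6b* lost without control library 2. The number that differed between neurospheres and hippocampi was 2 to 3 with each library left out, and 2 (*Kdm5b* and *Kdm6b*) with the replicate block. In *Rnf2* hippocampi 0 to 1 genes were called with each library left out, the 1 being *Kdm6b* without control library 2. Where a group keeps 1 library, its spread is taken from the other group. The number of genes that differed from hippocampi was 0 in cortices and *Rnf2* hippocampi in all alternatives. The deviations of same-numbered libraries from their group means had r from -0.103 to 0.0491 in hippocampi, -0.277 in neurospheres, -0.0528 in cortices and 0.161 in *Rnf2* hippocampi. With no label that ties the numbers and only 2 pairs outside hippocampi, the libraries share only a number. The replicate block changed no call of the 8 genes within a table. Over all genes it gave 552 higher and 437 lower calls in *Rnf2* hippocampi, beside 451 and 291 without it. With crossed numbers in neurospheres, an alternative chosen after seeing the data like the median-ratio scaling without control library 1, 2 genes were called, as in the other. The sign of an uncalled gene turned in 3 of 112 alternative values in hippocampi, 2 of 112 in neurospheres, 6 of 104 in cortices and 12 of 104 in *Rnf2* hippocampi. Over all genes, calls went from 742 higher and 358 lower to 1226 and 441 in cortices without control library 1. In *Rnf2* hippocampi they went from 451 and 291 to 808 and 772 without control library 2, and to 278 and 190 without cKO library 2. Depth limits *Kdm4c* most, with 330 to 407 reads in *Rnf2* libraries.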

Other observations

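The levels of the 8 genes over the 18 libraries were set beside those of the 9606 genes tested in all 4 tables, as Pearson's r of log2(FPKM + 1). The libraries differ in tissue, culture, annotation and normalization, so r mostly follows differences between tables and is a description. *Kdm3a* and *Kdm4c*, which were both highest in neurospheres, had r = 0.976 with each other. *Kdm5b* had its highest r among the 8 with *Kdm4a* (0.793), and *Kdm4b* had negative r with *Kdm1a* (-0.453), *Kdm2a*, *Kdm3a* and *Kdm4c*. The genes most like each member were *Ahctf1* and *Atg4d* for *Kdm1a* (r = 0.949 and 0.947), *Ubr1* and *Yeats2* for *Kdm2a* (0.989 and 0.985), *Flcn* and *Trpm7* for *Kdm3a* (0.982 for both), *4930480K23Rik* and *Bcl9l* for *Kdm4a* (0.891 and 0.876), *Dhx57* and *Thbs1* for *Kdm4b* (0.961 and 0.957), *Bsdc1* and *Smarcad1* for *Kdm4c* (0.988 for both), *Ick* and *Pcp4* for *Kdm5b* (0.958 and 0.948) and *Ddx17* and *Fbxl20* for *Kdm6b* (0.950 and 0.934).

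Markers of other cell types moved with the cKO in tissue, where the 8 genes were not called. In cortices all 5 meningeal markers were called higher, along with 3 of 4 microglial, 3 of 4 red blood cell and 2 of 4 vessel markers. Over all genes, 7.01% were called there. At an adjusted p under 0.05 limma passed 2 of the 5 meningeal markers and 0 microglial, red blood cell or vessel markers, beside 0.427% of all genes. Of 2 astrocyte markers tested in cortices, 1 was called higher (1.60) and passed as well, and the other was at -0.09. The 4 astrocyte markers summed to 5.72 to 6.39 FPKM in controls and 10.4 to 10.6 FPKM in cKO. The meningeal sum was 1.17 to 1.80 FPKM in controls and 16.3 to 24.3 FPKM in cKO. In *Kdm2b* hippocampi 3 of 7 progenitor markers and 3 of 4 microglial markers were called higher, and 1 of 7 neuronal markers lower, beside 6.14% of all genes called. At an adjusted p under 0.05 limma passed 6, 2 and 4 of these markers in that order, beside 8.27% of all genes. Summed neuronal levels were 2070 to 2152 FPKM in controls and 1630 to 1877 FPKM in cKO. Of thalamic markers 1 of 4 tested was called higher (*Lhx9*, 14.1 to 21.2 FPKM, log2 fold change 0.57) and 3 had an adjusted p under 0.05 with limma, with sums of 40.3 to 43.5 FPKM in controls and 53.6 to 56.8 FPKM in cKO. In neurospheres 1 of 2 tested was called higher, beside 24.6% of all genes called. In cortices 0 of 3 and in *Rnf2* hippocampi 0 of 4 were called, with 2 and 1 at an unadjusted p under 0.05 in limma. Of 4 astrocyte markers in hippocampi, *Aqp4* was called lower (-0.59), 3 had negative estimates and 1 a positive one (0.38). The groups of 3 did not overlap, beside 29.2% of all genes. The summed level of the 4 was 111.0 to 132.0 FPKM in controls and 109.6 to 177.6 FPKM in cKO. At an adjusted p under 0.05 limma passed 0 of the 4. *Ttr*, of choroid plexus, was called higher (1.77), with overlapping groups. In *Rnf2* hippocampi 3 of 5 meningeal markers were called lower, beside 4.71% of all genes called, and 0 of 5 had an adjusted p under 0.05 with limma. The summed level of choroid plexus markers ranged there from 12.3 to 50.0 FPKM in controls and from 7.24 to 240.6 FPKM in cKO.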
